A study of Homo sapiens with 6 samples.

Results

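The genes described here are the histone cluster genes, the rows of the expression table whose symbol begins with HIST1H, HIST2H, HIST3H or HIST4H. There are 89 of them among 58024 genes, and 19 of the 89 are annotated or named as pseudogenes. They were selected on the measured values, because this family had the highest share of changed genes between the groups. The difference between the groups is therefore given for them as a description, without a p-value, and nothing is read from their counts of calls. RNA-Seq was done on 3 libraries of parental C4-2B cells and 3 libraries of enzalutamide resistant C4-2B cells. C4-2B is an established human prostate cancer line, derived from LNCaP by passage through castrated mice to a bone metastasis, and enzalutamide is an antagonist of the androgen receptor. Both groups were grown in RPMI-1640 with 10% fetal bovine serum. The resistant cells are the pooled survivors of selection in 1 to 20 µM enzalutamide over at least 6 months, kept in 5 µM. The parental cells received DMSO, at 1% by the labels. The labels also name 10 µM enzalutamide at RNA extraction, in wording that could cover either group, so resistance and exposure to the drug cannot be told apart.

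Histone cluster genes encode the core histones H2A, H2B, H3 and H4, which form the nucleosome, and the linker histone H1, which binds DNA between nucleosomes. Most of them are replication dependent: they lack introns, are transcribed mainly in S phase, and their mRNAs end in a conserved stem-loop in place of a poly(A) tail. The stem-loop is bound by SLBP and guides the processing, translation and decay of the mRNA. The genes lie in a large cluster on chromosome 6 (HIST1), smaller ones on chromosome 1 (HIST2 and HIST3) and alone on chromosome 12 (HIST4), apart from 2 pseudogenes with HIST1 names, HIST1H2BPS3 and HIST1H2APS6, on chromosome 13. Several genes of a type encode the same or nearly the same protein.

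The stem-loop was searched on the sense strand in the 200 bases after the stop codon, in the hg38 genome, because it decides how these mRNAs end and so how a library preparation can capture them; the labels name 2 preparation kits, and whether poly(A) RNA was selected is not known. It was found in 65 of 68 members with a stop codon (95.6%), and in 2 of 19879 other protein-coding genes (0.01%), BTBD10 and H2AX. The 3 members without it in this window were HIST1H2BJ, HIST1H2BN and HIST2H2BF. Where transcripts of a gene had different stop codons, the one furthest along the gene was used. A stem-loop after an earlier stop codon could thus be missed, and these 3 are not shown to lack one. Where found, the stem-loop began 22 to 62 bases after the stop codon, with a median of 35. The stem-loops of 6 members that the results turn on are shown, in capitals with the 5 bases on each side in lower case.
HIST1H4D: ccaacGGCCCTTTTCAGGGCCaccta
HIST1H4L: tcaaaGGCCCTTCTCAGGGCCaccca
HIST1H3C: gaaaaGGCTCTTTTCAGAGCCactca
HIST1H1D: taaacGGCTCTTTTCAGAGCCaccca
HIST1H2BM: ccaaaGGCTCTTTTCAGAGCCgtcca
HIST4H4: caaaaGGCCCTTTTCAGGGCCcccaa
The first 2 and HIST1H3C and HIST1H1D were much higher in the resistant cells, while HIST1H2BM and HIST4H4 were lower. The form of HIST1H3C was carried by 36 members of types H1, H2A, H2B and H3, and that of HIST1H4D by 10 members, all of type H4. The same form thus stood in members that were higher and in members that were lower. The capitals of HIST1H4D lie at chr6:26188715-26188730 on the minus strand, and those of HIST4H4 at chr12:14770724-14770739 on the minus strand.

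Promoters were read from RefSeq (GRCh38.p14), with 250 bases before and 50 after each start, for the 66 members with an entry, some with more than 1 start. The CCAAT box was in 60 of 70 promoters (85.7%), against 34.6% of 35116 RefSeq promoters. The letters TATAAA were in 47 (67.1%, against 11.5%), and the octamer ATTTGCAT was in 27 (38.6%, against 1.8%). Both strands were searched, and windows of genes in head-to-head pairs overlap, so that some letters were counted for both genes of a pair. By type, the octamer was in 15 of 20 H2B and 11 of 16 H2A promoters, in 1 of 15 H3 promoters, and in 0 of 6 H1 and 0 of 13 H4 promoters, and CCAAT was in 3 of 13 H4 promoters and in every promoter of the other types. In the sequences below, these letters are in capitals on either strand. As the regions before members that moved together or reached the highest FPKM, 3 stretches of 250 bases before the start are shown. The first lies between HIST1H2AE and HIST1H2BG, which were both higher in the resistant cells, the second between HIST1H2BF and HIST1H2AD, which were both lower, and the third before HIST1H4D, which had the highest level in the resistant cells.
HIST1H2AE: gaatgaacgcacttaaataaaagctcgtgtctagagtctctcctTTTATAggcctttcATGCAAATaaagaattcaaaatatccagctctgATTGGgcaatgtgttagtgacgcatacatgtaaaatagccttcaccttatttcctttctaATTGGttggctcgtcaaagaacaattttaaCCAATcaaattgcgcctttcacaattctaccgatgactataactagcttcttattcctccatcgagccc
HIST1H2BF: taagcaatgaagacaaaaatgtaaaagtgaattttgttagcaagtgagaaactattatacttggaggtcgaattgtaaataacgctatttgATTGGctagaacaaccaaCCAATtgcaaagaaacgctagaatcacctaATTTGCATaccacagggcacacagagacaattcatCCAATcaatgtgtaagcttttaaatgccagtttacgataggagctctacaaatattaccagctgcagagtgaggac
HIST1H4D: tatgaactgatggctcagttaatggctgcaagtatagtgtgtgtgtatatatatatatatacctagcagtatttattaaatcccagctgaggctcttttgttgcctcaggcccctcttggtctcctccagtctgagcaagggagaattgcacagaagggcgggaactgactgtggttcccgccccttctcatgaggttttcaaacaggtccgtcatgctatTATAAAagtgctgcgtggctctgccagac
They lie at chr6:26216671-26216920 (plus strand), chr6:26199266-26199515 (plus strand) and chr6:26189113-26189362 (minus strand). The stretches of HIST1H2AE and HIST1H2BF each held 3 CCAAT boxes and 1 octamer, while TATAAA was found 1 time in the first and 0 times in the second. Their genes differed between the groups in opposite directions. A match to these letters is a description and not a measured binding site.

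The values are FPKM, fragments per kilobase of gene model scaled to the sequencing depth. The 6 libraries summed to between 792975 and 870110 FPKM, and the values left by single reads gave estimates of 13500000 to 20500000 reads per library. Luminal prostate markers were present, all 10 of the list, with KLK3, the gene of prostate specific antigen, at 2489, 2321 and 2857 FPKM in the parental and 46.8, 43.5 and 41.8 FPKM in resistant libraries. The 3 basal markers summed to at most 0.927 FPKM and the 3 leukocyte markers to at most 0.658 FPKM in any library. The 4 fibroblast markers summed to between 5.09 and 8.74 FPKM in the parental and between 7.64 and 12.4 FPKM in resistant libraries. Of these, DCN rose from 0 in all parental libraries to 3.63, 3.78 and 4.35 FPKM (limma with Benjamini-Hochberg adjustment, adjusted p = 5.33e-05), and LUM from 0.0882, 0.0928 and 0 FPKM to 1.12, 0.609 and 1.18 FPKM (limma, adjusted p = 0.00418). COL1A1, most of the parental sum, was at 6.39, 4.98 and 8.74 FPKM and at 2.86, 3.47 and 6.83 FPKM (limma, adjusted p = 0.192). The part of these markers in the results was not tested. The labels do not say whether libraries of a group came from separate cultures, so p-values measure only the spread between these libraries.

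The summed level of all members was 18579.8, 16088 and 18611 FPKM in parental libraries and 27759, 32046 and 29317 FPKM in resistant libraries. The resistant mean was 1.67 times the parental mean, and no resistant library came below a parental one. Members took between 2.01% and 2.14% of the summed FPKM in parental libraries and between 3.44% and 3.76% in resistant libraries. Of the 89 members, 17 were at 0 in all libraries, 4 more had a mean below 0.1 FPKM, and 68 were fitted. With limma and Benjamini-Hochberg adjustment over all 24468 genes fitted, 43 of the 68 were called higher and 8 lower in the resistant cells, and 17 were not called. Among all genes fitted, 22.1% were called higher and 22.3% lower, 44.4% in all. The median log2 difference of the 68 members was 0.59, on the scale of log2(FPKM + 0.1), and that of all genes was −0.05. All resistant values lay above all parental values in 44 of the 68 (26.6% of all genes fitted) and below them in 8 (28.1%). Of the 68, 6 had a mean below 0.1 FPKM in one of the groups and passed the filter through the other.

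**Figure D1:**
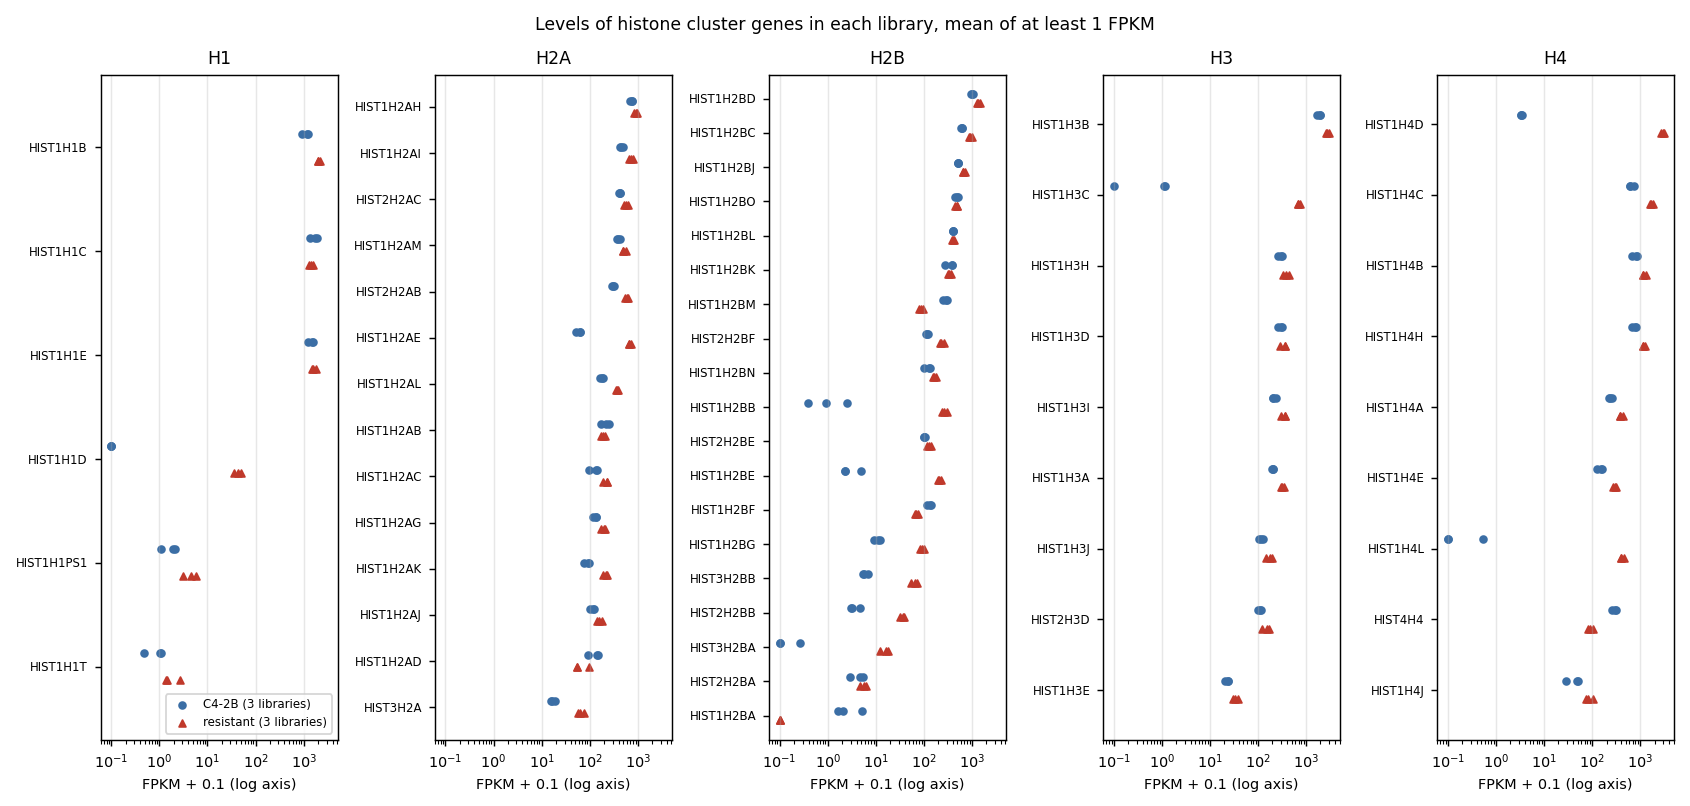
Level of each member with a mean of at least 1 FPKM, by histone type, as FPKM + 0.1 on a log axis. Each gene has 3 points for parental C4-2B libraries (circles) and 3 for resistant libraries (triangles). Most genes lie a little to the right in the resistant cells, while HIST1H4D, HIST1H4L, HIST1H3C, HIST1H2BB, HIST1H2BE and HIST1H1D were near or at 0 in the parental cells only, and HIST4H4, HIST1H2BM and HIST1H2BF lie to the left.

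By type, the largest relative difference in summed level was that of H4, the core histone that pairs with H3. H4 genes summed to 3215, 2606 and 2974 FPKM in the parental and 7859.5, 8836 and 8112 FPKM in resistant libraries, 2.82 times as much. A single gene made a large part of this: without HIST1H4D, the ratio was 1.84. H3 genes summed to 3124 ± 191 and 5253 ± 477 FPKM (SD, n = 3 each), a ratio of 1.68, or 1.46 without HIST1H3C. H2A genes summed to 3374 ± 239 and 5465 ± 404 FPKM, a ratio of 1.62. H2B genes summed to 4143 ± 208 and 5572 ± 409 FPKM, a ratio of 1.34. H1 genes summed to 4187 ± 588 and 5148 ± 399 FPKM, a ratio of 1.23. In every type all resistant sums lay above all parental sums.

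**Figure D2:**
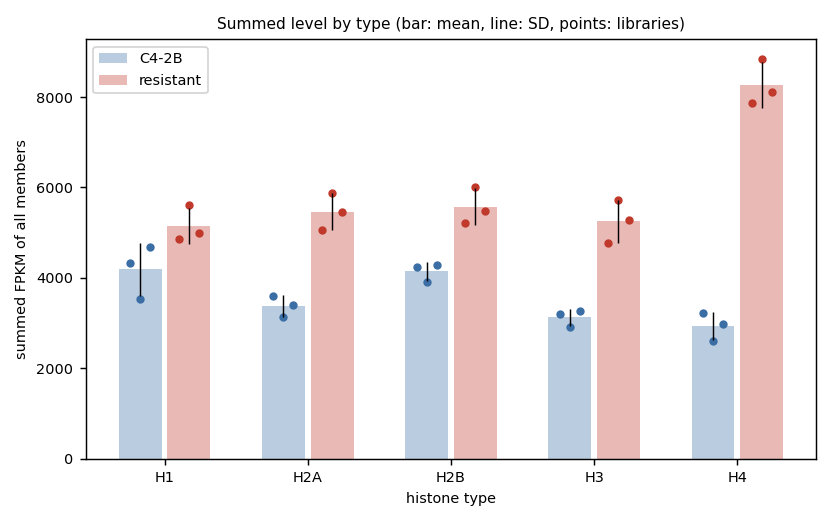
Summed FPKM of all members of each histone type, with the mean (bar), the SD (line) and each of the 3 libraries per group (points). The parental sums of the core types lie between 2606 and 4291 FPKM. The resistant H4 sums, between 7859.5 and 8836 FPKM, stand above those of the other types. FPKM overstates short gene models, so the heights do not rank the types by number of reads.

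Among H4 genes, 8 of the 12 fitted were called higher and 2 lower, against 22.1% and 22.3% of all genes fitted. HIST1H4D (chromosome 6, GRCh38, 26188765 to 26189076, minus strand) was at 3.16, 3.38 and 3.30 FPKM in parental libraries and at 2674, 3062 and 2935 FPKM in resistant libraries. It was thus the member with the highest mean in the resistant cells, with a log2 difference of 9.74. Its gene model is 312 bases long, and on so short a model FPKM overstates the level relative to longer ones. The parental values correspond to an estimated 7, 8 and 5 reads and the resistant values to 5326, 5614 and 4732 reads, with fragments of 200 bases assumed. HIST1H4L (27873199 to 27873510, minus strand) was at 0.450, 0 and 0 FPKM in parental libraries and at 391, 462 and 403 FPKM in resistant libraries. Its single parental value corresponds to about 1 read. HIST1H4C, the member with the next highest level among H4 genes of the resistant cells, was at 742, 612 and 617 FPKM and at 1589, 1839.5 and 1649 FPKM, a 2.58-fold difference. HIST1H4B was at 875, 686 and 816 FPKM and at 1139, 1313 and 1154 FPKM. For both genes every resistant value lay above every parental value.

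HIST4H4, the gene on chromosome 12 (14767999 to 14771131, minus strand), went the other way, with 315, 254 and 300.4 FPKM in the parental and 82.8, 104 and 91.8 FPKM in resistant libraries. The groups did not overlap, and the log2 difference was −1.64. H2AFJ, which encodes the H2A variant H2A.J, begins 3251 bases beyond the end of the HIST4H4 locus and was at 527, 475 and 503 FPKM and at 15.8, 18.7 and 17.1 FPKM (log2 difference −4.86, limma with Benjamini-Hochberg adjustment, adjusted p = 1.18e-06). The other H4 gene called lower, HIST1H4I, was low in both groups, at 1.40, 1.31 and 1.27 FPKM and at 0.176, 0.250 and 0.280 FPKM. It was chosen for mention after its values were seen.

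Among H3 genes, 8 of the 13 fitted were called higher and 0 lower, against 22.1% and 22.3% of all genes fitted. HIST1H3B, the member with the highest mean over all libraries, was at 1942, 1718 and 1969 FPKM in the parental and at 2549.8, 3077 and 2782 FPKM in resistant libraries, 1.49-fold higher. HIST1H3C (26045411 to 26045821, plus strand) was at 1.00, 0 and 1.09 FPKM and at 675, 732 and 695 FPKM, which places it next after HIST1H3B among the H3 genes of the resistant cells. Its parental values correspond to about 4, 0 and 3 reads. HIST1H3H was at 301, 262 and 310.4 FPKM and at 337, 438 and 388 FPKM, and this smaller difference lost its call in 6 of 15 alternatives of the analysis. HIST3H3, a histone gene known from testis, had 0, 1.07 and 0 FPKM and 0, 0.244 and 0.531 FPKM, and was not called.

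Among H2B genes, 12 of the 23 fitted were called higher and 5 lower, against 22.1% and 22.3% of all genes fitted. HIST1H2BD had the highest level, at 997, 947 and 1036 FPKM in the parental and 1295, 1477 and 1363 FPKM in resistant libraries. HIST1H2BC (1.52-fold) and HIST1H2BJ (1.30-fold) were also higher without overlap. HIST1H2BB (26043277 to 26043657, minus strand) was at 0.286, 2.46 and 0.835 FPKM and at 238, 307 and 268 FPKM. HIST1H2BE was at 2.14, 2.14 and 4.76 FPKM and at 198, 232 and 210.0 FPKM, and shares its locus in the table (26158146 to 26184655) with HIST1H2BD, so that their values depend on how reads were divided between overlapping models. These 2 genes were near 0 in the parental cells and at the level of many other H2B genes in the resistant cells.

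HIST1H2BM (27815044 to 27815424, plus strand) was at 285, 252 and 306 FPKM in the parental and at 80.1, 87.8 and 95.3 FPKM in resistant libraries, a log2 difference of −1.68. HIST1H2BF was at 132, 115 and 140.1 FPKM and at 64.8, 74.2 and 67.8 FPKM, a log2 difference of −0.90. For both genes every resistant value lay below every parental value. HIST1H2BA, a testis H2B, was at 1.98, 1.51 and 4.97 FPKM in parental libraries and listed at 0 in all resistant libraries, and the pseudogene HIST1H2BPS2 was at 0.734, 0.788 and 3.23 FPKM and then at 0. Several of the more abundant H2B genes differed by less than the spread between libraries, among them HIST1H2BO (509.7, 449 and 499 FPKM against 453, 499 and 481 FPKM) and HIST1H2BL (400.2, 398 and 403 FPKM against 384, 427 and 409.5 FPKM).

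Among H2A genes, 12 of the 14 fitted were called higher and 1 lower, against 22.1% and 22.3% of all genes fitted. HIST1H2AH had the highest mean, at 773, 692 and 749 FPKM in the parental and 845, 956 and 899.6 FPKM in resistant libraries. HIST1H2AI was at 496, 448 and 433 FPKM and at 670.2, 782 and 712 FPKM, although only 37.7% of the 50-base windows of its model occur once in hg38. HIST2H2AC was at 433, 421 and 409.5 FPKM and at 506, 615 and 569.6 FPKM. HIST1H2AE, mentioned for its pair with HIST1H2BG after its values were seen, was at 61.8, 52.3 and 63.3 FPKM and at 651, 729.6 and 668 FPKM, the largest difference among H2A genes with a log2 difference of 3.53. The H2A gene called lower was HIST1H2AD, also chosen after its values were seen, at 144, 92.6 and 148 FPKM and at 55.3, 54.9 and 95.1 FPKM. Its groups overlapped, the call was lost in 6 of 15 alternatives, and its locus in the table holds 4 genes.

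Many H2A and H2B genes lie head to head, with a short stretch of DNA between their starts. By GENCODE v44, 17 pairs of members lay head to head within 1000 bases of each other, and both genes were fitted in 13, 12 of them made of H2A or H2B genes only. The fitted difference had the same sign in both genes of 8 pairs, higher in 7 and lower in 1. The 7 include HIST1H2BL with HIST1H2AI, where HIST1H2BL was not called (log2 difference 0.02). HIST1H2BO was counted with both HIST1H3J and HIST1H2AM. As 43 of the 68 members fitted were called higher, nothing is read from the count of shared signs. HIST1H2BG (10.9, 8.94 and 12.0 FPKM against 82.0, 98.4 and 91.0 FPKM) and HIST1H2AE, 232 bases apart, had log2 differences of 3.09 and 3.53. HIST3H2A and HIST3H2BB, 229 bases apart, had log2 differences of 1.93 and 3.43. HIST1H2AD and HIST1H2BF, 222 bases apart, had −0.92 and −0.90, the pair that was lower. HIST1H2AJ and HIST1H2BM, 244 bases apart, differed in opposite directions, with 0.52 and −1.68. Both patterns thus occurred, and only 16.3% of the windows of HIST1H2AJ occur once in the genome.

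Among H1 genes, 3 of the 6 fitted were called higher and 0 lower, against 22.1% and 22.3% of all genes fitted. HIST1H1D (26234268 to 26234933, minus strand), which encodes the linker histone H1.3, was listed at 0 in all parental libraries and at 35.7, 43.7 and 50.3 FPKM in resistant libraries. It was the only member at 0 in every parental library and above 0 in every resistant library, and no fold change is given. Every 50-base window of its model occurs once in hg38, and the resistant values correspond to about 294, 331 and 335 reads. An exact 0 in such a table need not mean absence: RPPH1, the RNA of RNase P that every cell uses, was also listed at 0 in all parental libraries and at 2685, 3559 and 3216 FPKM in resistant libraries. The locus listed for RPPH1 is far longer than that of HIST1H1D, which is alone in its locus. What set the parental values of either gene was not tested. HIST1H1B was at 1184, 911 and 1216 FPKM and at 1959, 2222 and 1994 FPKM, 1.87-fold higher. HIST1H1C (1685, 1390.0 and 1890.3 FPKM against 1311, 1535 and 1401 FPKM) and HIST1H1E (1460.1, 1238 and 1580.1 FPKM against 1548, 1798 and 1530.1 FPKM) overlapped between the groups and were not called. Their log2 differences were −0.22 and 0.19, with standard errors of 0.13 and 0.11.

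In all, 5 members had a parental mean below 5 FPKM and a resistant mean above 100 FPKM: HIST1H4D, HIST1H4L, HIST1H3C, HIST1H2BB and HIST1H2BE. They summed to 7.03, 7.99 and 9.99 FPKM in the parental and to 4176, 4795 and 4511 FPKM in resistant libraries. Without them, the ratio of the summed levels of the other 84 members was 1.42. The 43 members whose values averaged 100 FPKM or more across all 6 libraries included these 5. The median log2 difference of the 43 was 0.58, from −1.68 to 11.21. In this set, 34 were called higher and 2 (HIST1H2BM and HIST4H4) lower, against 22.1% and 22.3% of all genes fitted. The cut used both groups, so the 5 passed it only through their resistant values, and it partly sets these counts. HIST1H2AD and HIST1H2BF, called lower, fell just under it with means of 98.3 and 99.0 FPKM.

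**Figure D3:**
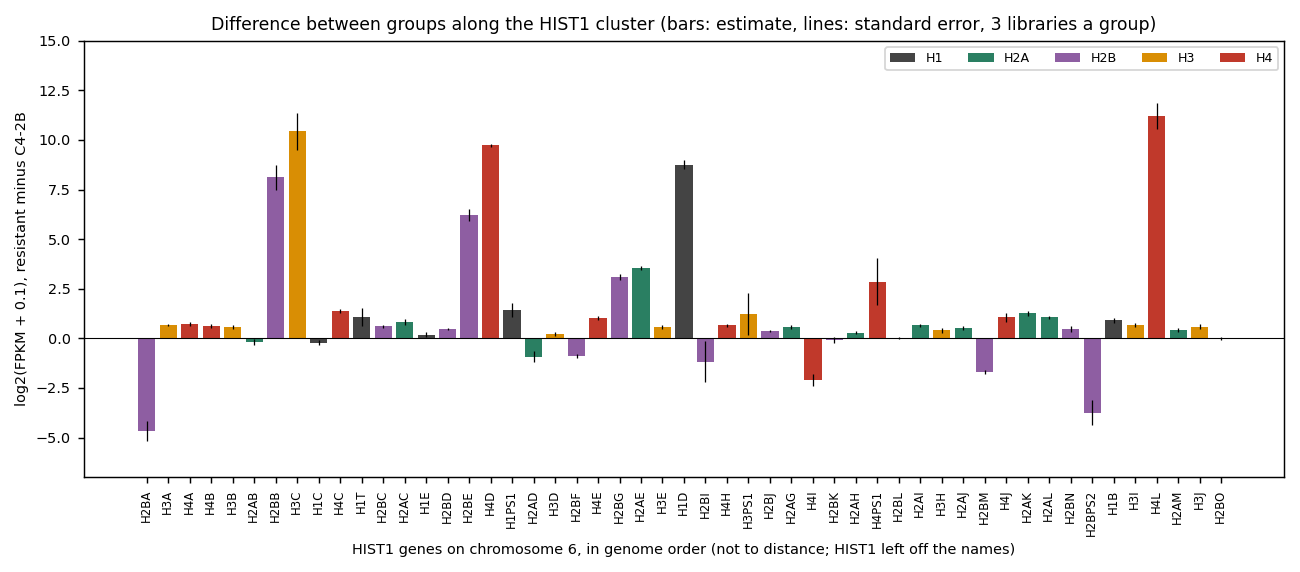
Log2 difference (resistant minus parental) of each fitted HIST1 gene of chromosome 6, on the scale of log2(FPKM + 0.1), in genome order (genes of a shared locus side by side), with the standard error over 3 libraries per group; colours mark the histone type. The 5 genes near 0 in the parental cells, with HIST1H1D listed at 0 there, reach up to 11.21, against a median of 0.59 over all members fitted; bars of genes with values of 0 depend on the pseudocount.

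Along the HIST1 cluster some genes with the largest differences were neighbours of each other, and some were neighbours of genes with small ones. HIST1H2BB and HIST1H3C lie next to each other, between HIST1H2AB (257, 174 and 219 FPKM against 175, 207 and 193 FPKM) and HIST1H1C, which were not called. HIST1H4L lies next to HIST1H3I, at 201, 233 and 205 FPKM and at 303, 362 and 361 FPKM. The span of the HIST1 members on chromosome 6, 2168 kb, also holds 20 other protein-coding genes within it, of which 15 were fitted, 3 rose and 5 fell (limma, adjusted over all genes). In the whole table, 22.1% of genes fitted were called higher and 22.3% lower. HIST1H2AB and HIST1H3I here, and HIST1H2BO and HIST1H2BL above, were chosen after their values were seen. The median log2 difference of the 15 genes was −0.05, equal at this precision to that of all genes.

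In the HIST2 cluster on chromosome 1, 6 of the 11 fitted members were called higher and 1 lower. The shares of all genes fitted were 22.1% and 22.3%. HIST2H2AB was at 306, 292 and 324 FPKM in the parental and at 549, 633 and 595 FPKM in resistant libraries. HIST2H2BF (118, 112 and 123 FPKM against 224, 257 and 216 FPKM) was similarly higher. Only 29.4% of its windows occur once in hg38, and its locus in the table holds 3 genes. HIST2H2BE was at 107, 102 and 99.6 FPKM and at 116, 140.2 and 130.5 FPKM, and HIST2H3D at 112, 103 and 116 FPKM and at 122, 169 and 156 FPKM. These 2 calls were lost in 6 and 8 of 15 alternatives, and only 19.6% of the windows of HIST2H3D occur once. HIST2H2BB, a pseudogene in RefSeq, was at 3.01, 4.49 and 3.14 FPKM and at 32.4, 36.6 and 38.3 FPKM, in a locus shared with 6 other genes. HIST2H2BC, also a pseudogene in RefSeq, was the member called lower, at 2.65, 1.57 and 0.999 FPKM and at 0.375, 0 and 0.192 FPKM. HIST2H2BA (2.85 to 5.40 against 4.67 to 6.27 FPKM), HIST2H3DP1 (0 to 0.496 against 0.340 to 0.946 FPKM), HIST2H3PS2 (0 against 0 to 0.347 FPKM) and HIST2H4A (0.299 to 0.422 against 0 to 0.198 FPKM) were not called.

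In the HIST3 cluster, also on chromosome 1, 3 of 4 members were called higher, against 22.1% of all genes fitted. The summed level of this cluster was 6.24 times the parental level, though low. HIST3H2A was at 19.3, 15.6 and 16.0 FPKM and at 56.3, 75.7 and 63.6 FPKM. HIST3H2BB was at 5.58, 6.72 and 5.32 FPKM and at 53.6, 73.7 and 65.6 FPKM. The pseudogene HIST3H2BA beside them was at 0.164, 0 and 0 FPKM and at 12.4, 16.2 and 17.6 FPKM. The 3 neighbours on chromosome 1 were thus all higher in every resistant library.

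Identical copies limit what the table can show. For the 7 members of which no 50-base window occurs once in hg38, HIST1H4K, HIST2H2AA3, HIST2H2AA4, HIST2H3A, HIST2H3C, HIST2H4A and HIST2H4B, no value exceeded 0.422 FPKM, and 6 were at 0 in all libraries. At 0 everywhere were also 4 genes, pseudogenes aside, of whose windows at least 90% occur once. The reads of identical copies could not be assigned by position, so the level of these genes is not known from this table. HIST1H4D, HIST1H4L, HIST1H3C, HIST1H2BB, HIST1H1D and HIST1H2BM each had 100% of their windows occurring once.

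**Figure D4:**
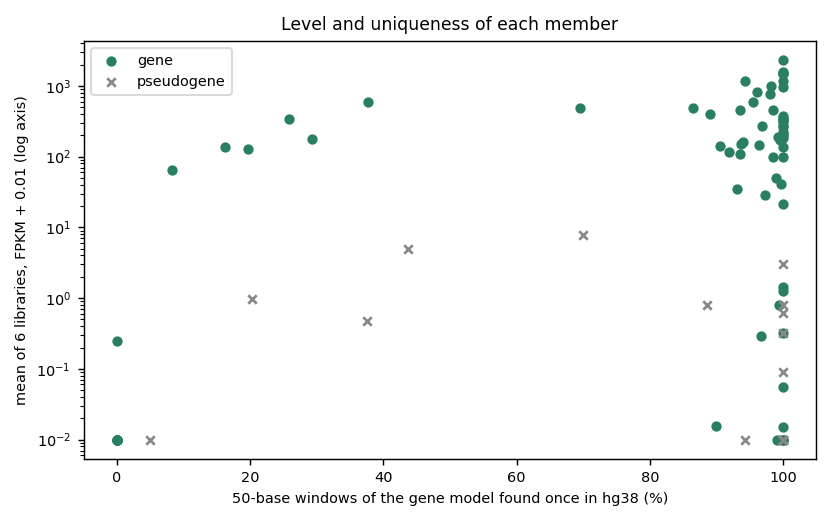
Mean level of each member over 6 libraries (FPKM + 0.01, log axis) against the percentage of 50-base windows of its model that occur once in hg38, for genes (circles) and pseudogenes (crosses). The 7 members at 0% all have means of at most 0.241 FPKM, while members between 8.33% and 37.7% reach 590.2 FPKM.

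The genes that serve histone mRNAs were compared next, from lists put together with earlier results of these data known. Among 11 genes of histone transcription, 6 rose and 2 fell (limma, adjusted over all genes). For comparison, 22.1% of all genes fitted were called higher and 22.3% lower. CASP8AP2 (FLASH), a factor of the histone locus body, was at 3.80, 3.58 and 4.64 FPKM in the parental and at 14.5, 16.2 and 16.5 FPKM in resistant libraries (log2 difference 1.95, limma with Benjamini-Hochberg adjustment, adjusted p = 1.31e-04). CDK2, the kinase that with cyclin E phosphorylates NPAT, was at 64.9, 65.5 and 67.5 FPKM and at 164, 157 and 167 FPKM (log2 difference 1.30, adjusted p = 2.49e-05 from the same limma fit). NFYA, a subunit of the factor that binds CCAAT, was at 15.6, 13.8 and 16.5 FPKM and at 25.2, 28.0 and 27.0 FPKM (adjusted p = 0.00122 from the same limma fit). NPAT, the coactivator of histone genes, was at 12.3, 11.5 and 12.4 FPKM and at 9.59, 10.6 and 11.0 FPKM and did not pass the test (adjusted p = 0.141 from limma). The 2 genes that fell were CCNE1 and POU2F1. CCNE1 was at 10.1, 9.54 and 13.5 FPKM and at 6.67, 4.88 and 6.92 FPKM (adjusted p = 0.0164, limma). POU2F1 was at 14.8, 18.6 and 18.9 FPKM and at 6.37, 6.35 and 10.3 FPKM (adjusted p = 0.00569, limma). NFYB also rose (log2 difference 0.63, adjusted p = 0.00257, limma), and NFYC was not called (−0.81, adjusted p = 0.0631, limma). CCNE1, POU2F1, NFYB and NFYC were chosen after their values were seen.

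Of 21 fitted genes of histone mRNA processing and decay, 8 rose, 6 fell and 7 were not called. SLBP, which binds the stem-loop shown above, was at 46.3, 48.3 and 51.6 FPKM and at 82.4, 90.4 and 90.7 FPKM (log2 difference 0.85, limma with Benjamini-Hochberg adjustment, adjusted p = 3.03e-04). LSM10, a subunit of the U7 snRNP that cleaves histone pre-mRNA, was at 29.9, 25.4 and 26.5 FPKM and at 11.8, 12.8 and 14.2 FPKM (adjusted p = 5.33e-04, limma). ZCCHC6, a uridylyltransferase, was at 12.2, 14.3 and 13.9 FPKM and at 6.56, 6.31 and 6.06 FPKM (adjusted p = 6.12e-04, limma). Genes of this list were called in both directions, as were genes of the whole table (22.1% higher and 22.3% lower).

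Among the replacement histones outside the clusters, which are made throughout the cell cycle, 4 of 13 fitted genes rose and 2 fell. Of all genes fitted, 22.1% were called higher and 22.3% lower. H2AFV was at 107, 113 and 102 FPKM and at 222, 218 and 223 FPKM (adjusted p = 6.54e-05, limma), and H2AFY2, a macroH2A, at 8.31, 8.75 and 7.07 FPKM and at 19.9, 22.7 and 18.9 FPKM (adjusted p = 3.78e-04, limma). H2AFX, whose mRNA carries the stem-loop, was at 152, 179 and 118 FPKM and at 203, 221 and 202 FPKM (adjusted p = 0.0371, limma), a call lost in 7 of 15 alternatives. Of 24 histone chaperones, 9 rose and 5 fell. NAP1L1, which carries H2A and H2B, was at 720.3, 739.9 and 776 FPKM and at 306, 319.8 and 298 FPKM (adjusted p = 2.71e-05, limma). HAT1, which acetylates new H4, fell with a log2 difference of −1.02 (adjusted p = 2.55e-04, limma), and SUPT16H, a subunit of FACT, rose by 0.89 (adjusted p = 2.73e-04, limma).

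Of 22 genes of S phase, the phase in which histone cluster genes are expressed, 13 rose, 1 fell and 8 were not called, with a median log2 difference of 0.49. The shares of all genes fitted were 22.1% called higher and 22.3% lower. MCM7 (adjusted p = 1.29e-04), PCNA (1.62e-04) and GINS3 (1.72e-04, all limma) had log2 differences of 1.10, 1.07 and 1.25. Of 13 fitted short RNAs without a poly(A) tail, 3 rose and 3 fell, and their sum, mostly RMRP, ran from 34163 to 54085 FPKM in the parental and from 26146 to 31855 FPKM in resistant libraries. VTRNA1-1 was at 406, 495 and 378 FPKM and at 184, 184 and 152 FPKM (adjusted p = 4.15e-04, limma), and SCARNA10 was at 1.20, 0.432 and 0.586 FPKM and at 2.48, 2.98 and 2.74 FPKM (adjusted p = 0.00823, limma). The part of S phase genes, and of the capture of RNA without a poly(A) tail, in the values of the members was not tested.

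**Figure D5:**
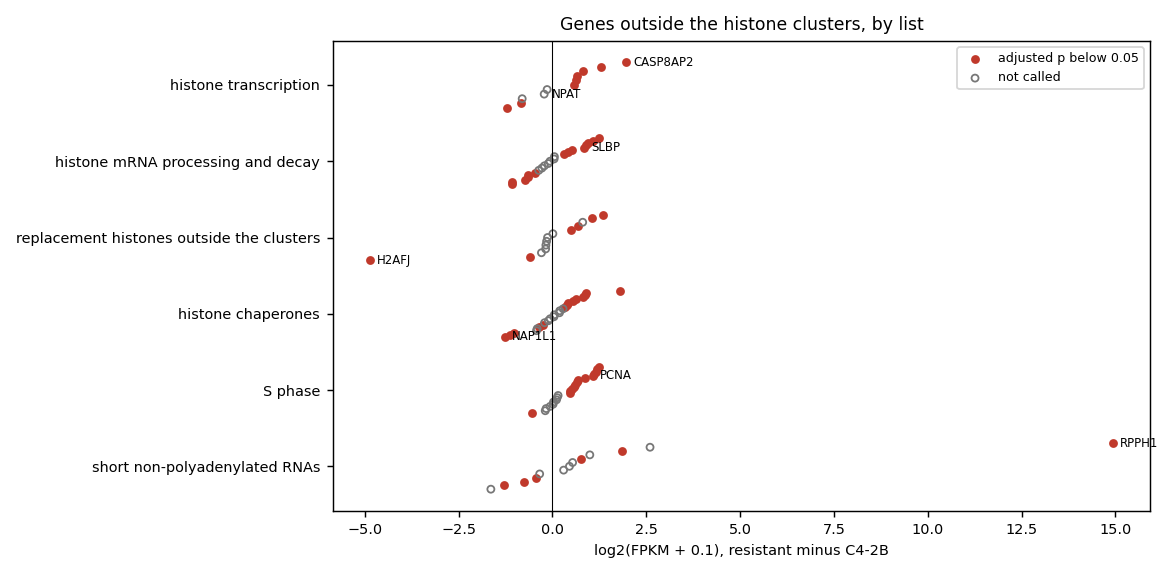
Log2 difference (resistant minus parental, on the scale of log2(FPKM + 0.1)) of the fitted genes of each list outside the clusters; filled points passed an adjusted p of 0.05 in limma. S phase genes lie mostly to the right, with 13 called higher and 1 lower, H2AFJ lies at −4.86, and RPPH1, listed at 0 in all parental libraries, lies at the far right at a value set by the pseudocount.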

How the data were processed

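RNA-Seq of 3 parental and 3 resistant C4-2B libraries was analysed. The authors sequenced single-end reads of 50 bp, and the paper's methods name TrimGalore, STAR, GRCh38, GENCODE v25 and Cufflinks, whereas the submitters' processing notes list Trimmomatic 0.27, FastQC 0.10.1 and the build mm10; the human loci in the table match GRCh38. The labels name both a TruSeq V2 and a TruSeq Stranded Total RNA kit, so whether poly(A) RNA was selected is not known. The deposited values were taken as FPKM, as made by the authors, with no read counts; the depth was estimated from the values that single reads leave on genes with 1 transcript.

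Groups were compared with limma 3.58.1 (R 4.3.3) on log2(FPKM + 0.1) with a mean-variance trend, over genes averaging 0.1 FPKM or more, with Benjamini-Hochberg adjustment at 0.05; the fit was tested on simulated data. Named were the 3 genes with the highest mean of each type and all HIST3 and HIST4 genes. All HIST2 genes were named except HIST2H2BD, at 0 in all libraries. Also named were HIST1H1D and members at 0 in a whole group and above 0 in every library of the other. Up to 6 increases and 6 decreases were named that averaged 1 FPKM or more, without overlap or a group at 0. From each list came the 3 smallest adjusted p, with SLBP, NPAT and H2AFX. Members and lists were chosen with earlier results of these data known. GENCODE v44 matched 82 of the 89 members by gene ID. The alternatives covered the pseudocount, the filter, the scaling, the mean-variance trend, blocking by replicate number and each library left out.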

Additional observations from a re-analysis of the deposited data

How the results depend on the processing

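Over 15 alternatives, 41 of the 51 called members kept their call wherever they were fitted; the other 10 included HIST1H2AD, HIST1H2BN, HIST1H3H and HIST2H3D. No called member changed direction. The members called higher ranged from 37 to 44, and those called lower from 5, with a filter at a mean of 1 FPKM, where fewer members are fitted, to 9, against 8 as reported. With each library left out in turn, 37 to 42 were called higher and 6 to 9 lower, and the median log2 difference ran from 0.51 to 0.66 and the log2 ratio of the summed levels from 0.68 to 0.79. Another scaling moved the median log2 difference of all genes from −0.05 to between −0.15 (equal sums without short genes) and 0.05 (median-of-ratios), and that of the members to 0.48 and 0.70. The number of histone chaperones called fell from 14 to 9 without the variance trend, and that of short non-polyadenylated RNAs from 6 to 3 with equal sums without short genes, which leaves the shortest out of the fit.

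The replicate numbers of the groups did not pair the libraries, since deviations of same-numbered libraries correlated at 0.008, 0.017 and −0.003. With a replicate block, 38 members were called higher and 8 lower. The differences of genes near 0 depend on the pseudocount: the log2 difference of HIST1H4L was 11.21, and 8.53 with 1 FPKM and 13.51 with 0.01 FPKM. Summed levels take no pseudocount and no test, so these settings, quantile normalization and the block gave no value for them. Read counts were not used here, and the values of genes in shared loci or with identical copies depend on how reads were assigned.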
